A study of Homo sapiens with 68 samples.

Results

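These measurements compare hnRNPI immunoprecipitates prepared with and without gel purification: 2 libraries with PAGE (group hnRNPI_50k_lowRNase) and 2 without it (hnRNPI_50k_noPAGE), 4 of the 68 libraries in the series. The 4 were chosen by their labels and by no measured value. All come from HEK293T, an established human embryonic kidney line, with 50000 cells and 0.005 U of RNase per library and the anti-hnRNPI antibody sc-56701, and all carry a protocol with 254 nm UV crosslinking. The assay is TLC-CLIP, in which RNA crosslinked to a protein is immunoprecipitated with it and sequenced. Other hnRNPI libraries serve as references, 2 per group: without PAGE and titled RecJ (hnRNPI_50k_noPAGE_RecJ), with PAGE and titled noUV (noUV_hnRNPI), and without PAGE and titled noUV (noUV_noPAGE_hnRNPI). That the noUV libraries were not crosslinked is taken from their titles, since their protocol text is the same. The question is which genes, RNA classes and positions gain or lose peaks and reads when PAGE is omitted. No label says that replicates came from separate cultures, so p-values measure only the spread between these libraries.

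hnRNPI, also called polypyrimidine tract binding protein, is a nuclear RNA-binding protein that binds pyrimidine-rich stretches, many of them in introns, and is best known as a repressor of alternative exons. In CLIP, the gel step separates crosslinked complexes by size, and RNA that is not attached to a protein of the chosen size is left behind. Libraries made without UV hold the RNA that is retrieved when no crosslink binds it to protein. Mitochondrial RNA is made from both strands of a small circular genome, and most of its genes, both ribosomal RNAs included, are read from the strand that is written as plus.

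Each library is a list of peaks that lie within genes, and each peak carries a number that was read as its reads. The deposited lists name genes by Ensembl identifier and pair none of them with a symbol, so genes are given here by their hg19 position and strand as listed. With PAGE the lists held 312894 and 294597 peaks in 13743 and 14098 genes, with 4870702 and 4200180 listed reads. Without PAGE they held 353415 and 341973 peaks in 14231 and 14105 genes, with 9788478 and 8868111 listed reads. The number of sequenced reads is not known, and a stretch can be listed more than once, so values below are shares wherever groups are compared: listed reads per 1000000 of the library's listed reads (RPM), or peaks per 100000 peaks. A gene without a listed peak has no value above the authors' threshold, which is not the same as no RNA. Where the reads of a site's highest peak are given as they stand, the lists without PAGE hold about 2 times as many reads in all. The noUV lists are smaller, with 255287 and 400088 listed reads with PAGE and 2067209 and 3235496 without (18690 to 78945 peaks). A share of a smaller list does not measure the amount of RNA. For sites, RPM is per 1000000 of the library's sum of these highest read numbers over all sites.

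Omitting PAGE shifted the read shares of many genes, mostly by small amounts, and moved a few compact and mitochondrial genes strongly upward. Of 8177 genes with a mean of at least 10 RPM over the 4 libraries, 595 were higher and 1682 lower without PAGE (limma on log2 of RPM plus 1, Benjamini-Hochberg adjusted p below 0.05), which is 7.28% and 20.6% of the genes tested and 27.8% in all. The median log2 difference of all genes was −0.13, and the middle part of the genes lay between −0.44 and 0.14 (quartiles). Both libraries without PAGE lay above both with PAGE in 1787 genes (21.9%) and below both in 3621 (44.3%). Groups that do not overlap are therefore common among the genes tested. The excess of lower calls was smaller under other scalings. With each library centred on its median gene, 952 genes were higher (11.6%) and 1111 lower (13.6%), 25.2% in all, and with the highest read number of each peak cluster in place of the sum, 927 were higher and 1020 lower. Leaving out hnRNPI_50k_noPAGE replicate 1 reduced the calls to 948, and leaving out replicate 2 reduced them to 1207.

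**Figure D1:**
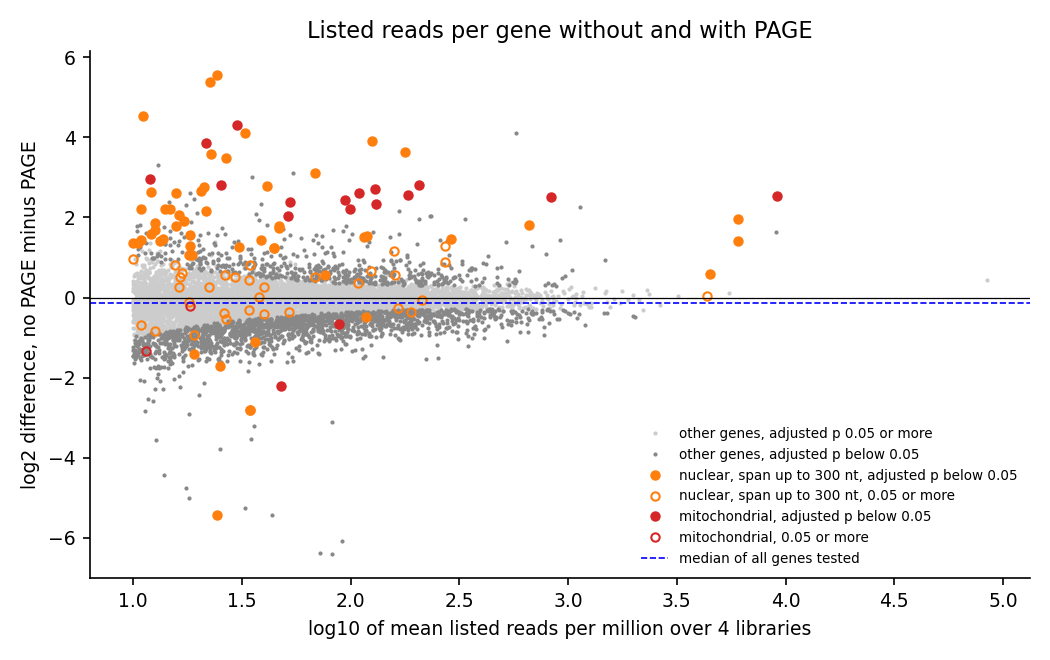
Each point is 1 of 8177 genes, with the log10 of its mean RPM over the 4 libraries on the x axis and the log2 difference, no PAGE minus PAGE, on the y axis. Mitochondrial genes (red) and nuclear genes with peaks over at most 300 nt (orange) reach high differences, the dashed line marks the median of −0.13, and the most extreme low points lie near −6.

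Mitochondrial genes had the largest relative gain of the 5 classes formed here. They held 0.349% and 0.350% of listed reads in the libraries with PAGE and 2.04% and 1.78% in those without, a 5.46-fold difference of the means (exact two-sided permutation p = 0.333, the smallest that 2 against 2 allows). Both libraries without PAGE lay far above both with PAGE. The RecJ libraries, also without PAGE, gave 2.22% and 1.75%. Without crosslinking the shares were 8.43% and 7.21% with PAGE and 7.88% and 7.55% without, so those groups overlapped. The lists held 60 and 81 mitochondrial peaks with PAGE and 101 and 91 without, or 0.023% ± 0.0059 and 0.028% ± 0.0014 of all peaks (SD, n = 2, exact permutation p = 0.667). Mean reads per mitochondrial peak went from 283 and 181 to 1975 and 1731, in read numbers not scaled to the library, while over all peaks the mean went from 15.6 and 14.3 to 27.7 and 25.9. The summed width of mitochondrial peaks went from 3435 and 3294 nt to 4750 and 4601 nt.

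The rise was carried by genes on the plus strand. Of 28 mitochondrial genes listed in any hnRNPI library, 19 passed the filter on low values. Of the 16 on the plus strand, 15 were called higher and none lower, with a median log2 difference of 2.54 (background 7.28% higher). Of the 3 on the minus strand none was called higher and 2 were called lower, but without hnRNPI_50k_lowRNase replicate 2 the count was 1 and 2. The count of 15 plus-strand genes stayed the same after median centring, with clusters in place of peaks and at a peak p below 1e-05. The filter takes the mean over all libraries compared, so a gene low with PAGE can pass through those without. With the filter at 50 RPM, 11 plus-strand genes were tested and 11 were called higher. That filter takes the same mean, so it does not remove this limit. The gene from 3421 to 4137, for example, held 14.0 and 18.8 RPM with PAGE and 93.7 and 84.6 without.

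The gene with the largest mitochondrial share was ENSG00000210082, listed from 1673 to 2895 on the plus strand. It held 2757 and 2603 RPM with PAGE and 16407 and 14712 without. The groups did not overlap, and the log2 difference was 2.54 ± 0.14 (SE, n = 2 per group, limma adjusted p = 2.38e-07). This gene also gained peaks, by 0.91 on the log2 scale (limma adjusted p = 0.00746). Its sites did not move evenly: a stretch from 1997 to 2149 was listed by neither library with PAGE and carried 4404 and 3691 reads without, and a stretch from 2767 to 2895 went from 455 and 519 reads to 6589 and 5840.

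The gene from 677 to 1551 went from 233 and 244 RPM to 1885 and 971, a log2 difference of 2.50 ± 0.21 (SE, limma adjusted p = 7.99e-06). Again both libraries without PAGE were higher. Further plus-strand genes moved by similar amounts at a much lower level. The gene from 10795 to 12114 went from 52.6 and 49.8 to 343 and 384 RPM (log2 difference 2.80 ± 0.12, limma adjusted p = 3.06e-08). The genes from 4720 to 5496, from 8617 to 9175 and from 6196 to 7283 rose by 2.72, 2.61 and 2.55 on the log2 scale. The log2 differences of the 15 genes called ranged from 2.03 to 4.31. The largest, 4.31 (8396 to 8512) and 3.85 (10507 to 10650), rest on 7.39 and 0 RPM and on 6.98 and 0 RPM with PAGE, so their sizes follow the pseudocount. These genes passed the filter only through the libraries without PAGE. So did those from 1604 to 1672 (0 and 6.67 RPM with PAGE) and from 10081 to 10347 (3.28 and 8.57). The plus-strand gene that was not called, from 585 to 649, held 4.72 and 21.9 RPM with PAGE and 19.4 and 0 without.

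The minus strand did not rise in hnRNPI, though only 3 genes were tested there, among them stretches of 33 and 43 nt. The gene from 5827 to 5859, a stretch of 33 nt, fell from 30.8 and 134 RPM to 10.4 and 16.6, a log2 difference of −2.21 ± 0.47 (SE, limma adjusted p = 0.00477). Its libraries with PAGE differed from each other by over 4-fold, and with the RecJ libraries set against the same PAGE libraries the difference was −0.94 and no longer passed the test. The gene from 14258 to 14569 held 89.9 and 129 RPM with PAGE and 63.7 and 72.7 without, a log2 difference of −0.65 ± 0.17 (SE, limma adjusted p = 0.0118). That call was lost after median centring, at −0.53, with clusters in place of peaks, at −0.11, and without hnRNPI_50k_noPAGE replicate 1, at −0.56. The gene from 15957 to 15999 held 6.36 and 39.3 with PAGE and 15.3 and 12.4 without, and the groups overlapped (log2 difference −0.22 ± 0.56, SE, limma adjusted p = 0.804).

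**Figure D2:**
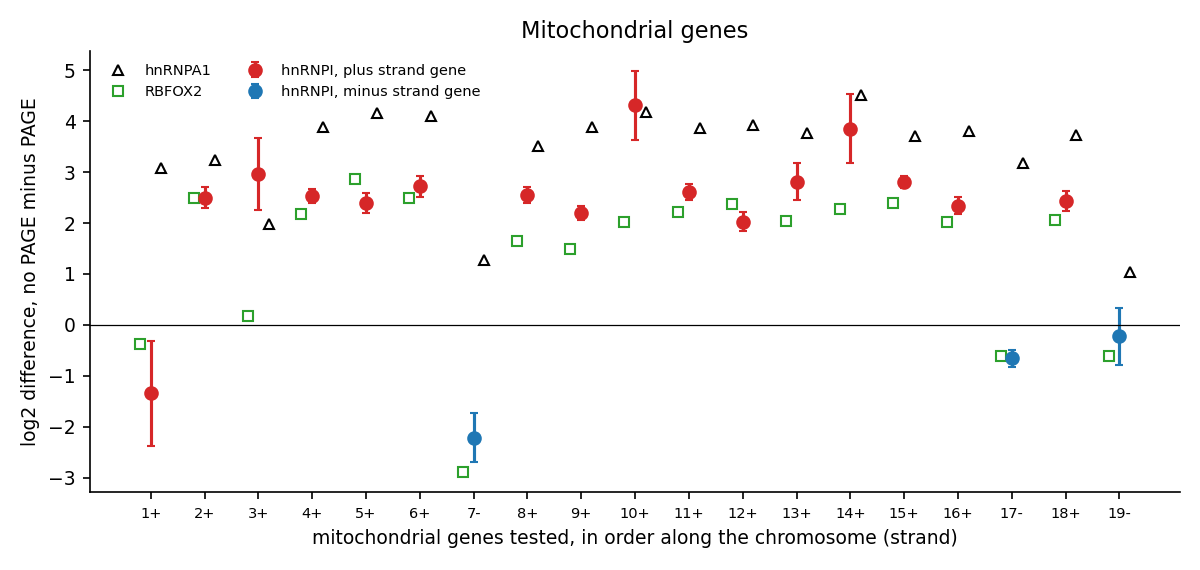
The 19 mitochondrial genes tested are drawn in their order along the chromosome, with the log2 difference in RPM, no PAGE minus PAGE, on the y axis; filled circles are hnRNPI with standard errors, open triangles hnRNPA1 and open squares RBFOX2. For hnRNPI, 15 of 16 plus-strand genes (red) lie at 2.03 or above and the 3 minus-strand genes (blue) lie below 0.

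Nuclear genes whose listed peaks span at most 300 nt also gained reads. This class was formed from the lists, so a member can be a short gene or a longer one listed at 1 position only. It held 1.62% and 2.13% of listed reads with PAGE and 4.20% and 3.04% without (means 1.87% ± 0.37 and 3.62% ± 0.82, SD, n = 2, exact permutation p = 0.333). With the highest read number of each cluster the means were 1.04% and 1.40%, so the gain was 0.36 percentage points in place of 1.75. Its share of peaks did not gain, at 0.38% ± 0.11 and 0.33% ± 0.0062 (SD, n = 2). Only 86 of its 2970 genes passed the filter on low values. Among these, 47 were called higher and 7 lower (54.7% and 8.14%), against 7.28% and 20.6% of all genes tested. The filter takes the mean over the 4 libraries, so some compact genes low with PAGE entered only through those without. The gene on chromosome 12, minus strand, 45948373 to 45948445, held 2.46 and 2.86 RPM with PAGE and 58.6 and 66.5 without. With the RecJ libraries in place of those without PAGE, 31 of 83 were called higher and 6 lower. In 43 of the 47 the shares in both noUV libraries without PAGE, which have smaller lists, also lay above those in both crosslinked libraries without PAGE. The same held for 221 of the 533 other nuclear genes called higher. It also held for the compact genes called lower, except that on chromosome 16 at 65138585 to 65138605, which had no listed reads in either group. The share over all genes tested was not counted.

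**Figure D3:**
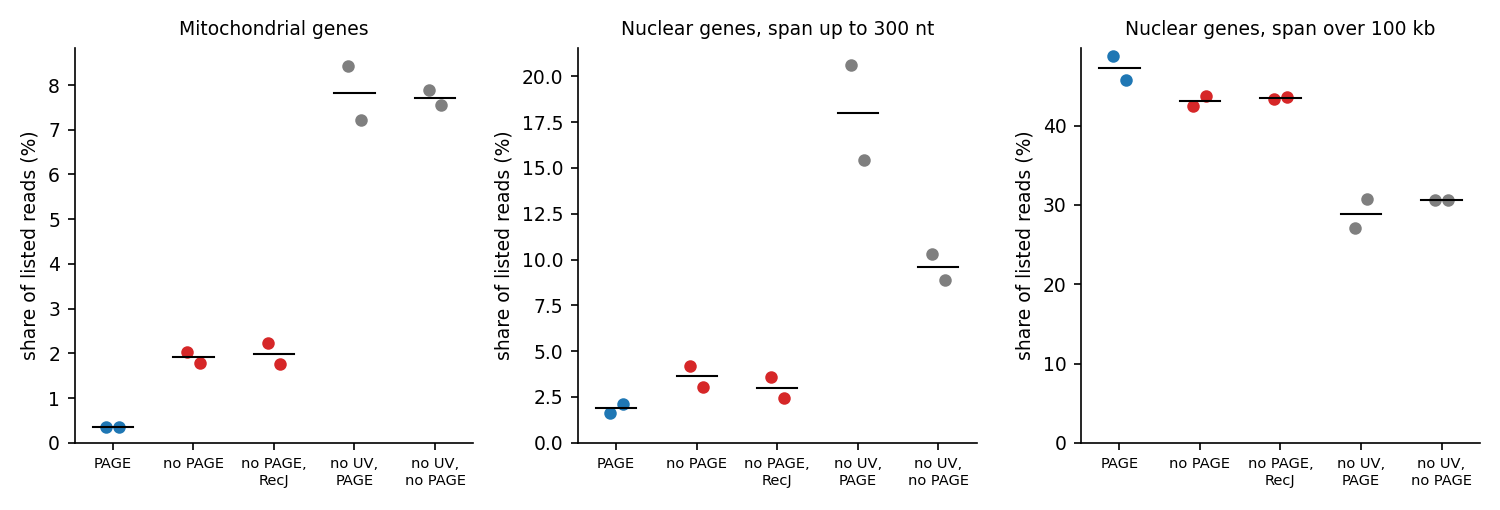
Each point is 1 library and each line the mean of 2, with the percent of listed reads on the y axis for mitochondrial genes, nuclear genes with peaks over at most 300 nt and nuclear genes with peaks over more than 100 kb. Mitochondrial shares are 0.349% and 0.350% with PAGE and at least 1.75% in each other library shown.

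The 3 members among the genes named for their size of difference are single stretches of 70 to 85 nt. On chromosome 2, minus strand, 175422732 to 175422801, the gene held 15.2 and 12.9 RPM with PAGE and 164 and 309 without (log2 difference 3.92 ± 0.24, SE, limma adjusted p = 3.42e-07). On chromosome 1, minus strand, 45196772 to 45196842, it went from 24.8 and 25 to 409 and 252 (3.64 ± 0.19, limma adjusted p = 1.67e-07). On chromosome 1, minus strand, 210547515 to 210547599, it went from 10.1 and 17.4 to 144 and 103 (3.10 ± 0.24, limma adjusted p = 4.08e-06). In all 3 both libraries without PAGE lay above both with PAGE, as in 21.9% of all genes tested. All 3 held higher shares again in the smaller lists without crosslinking. There the stretch at 45196772 held 2190 and 2789 RPM with PAGE and 2120 and 3090 without. By the highest peak of each site the log2 differences were smaller, at 2.74, 2.14 and 1.79.

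Some compact genes were not listed with PAGE at all. The genes on chromosome 15, plus strand, at 65588389 to 65588488 and 65597015 to 65597127, chosen after their values were seen, had no listed peak in either library with PAGE. Without PAGE the former held 64.2 and 33.4 RPM and the latter 64.4 and 25.6. No fold is given, because a list holds only peaks above its threshold. Both genes were also listed in the RecJ libraries, at 56.0 and 41.6 and at 76.4 and 46.2.

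The compact gene with the largest share lies on chromosome 11, minus strand, at 62609157 to 62609281. It held 2522 and 2269 RPM with PAGE and 11880 and 7390 without, a log2 difference of 1.97 ± 0.19 (SE, limma adjusted p = 2.3e-05). The same stretch is also listed under a gene at 62609098 to 62609282, which rose by 1.42, so the 2 values are not separate observations. A second abundant stretch on chromosome 11, minus strand, is also listed under 2 genes. Under that at 10823039 to 10823113 it held 3719 and 4916 with PAGE and 4365 and 4437 without, and the groups overlapped (log2 difference 0.04 ± 0.15, SE, limma adjusted p = 0.86). Under that at 10823015 to 10823154 it held 3109 and 4068 with PAGE and 6377 and 4495 without and was called higher (0.59 ± 0.18, SE, limma adjusted p = 0.0244). With clusters in place of peaks both genes turned negative, at −0.42 and −0.45.

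Among genes at 50 RPM or more, the largest rise called was that of ENSG00000242808 on chromosome 3, plus strand, with 88.3 and 44.3 RPM with PAGE and 1075 and 1100 without (log2 difference 4.10 ± 0.22, SE, limma adjusted p = 1.67e-07). Its peaks reach over more than 100 kb, but 71 nt at 180949522 to 180949592 held 99.6% and 100% of its site reads without PAGE. Its share of peaks fell, by 0.86 on the log2 scale (limma adjusted p = 0.0398): 8 and 13 peaks were listed with PAGE and 6 and 4 without. The gene's share was high without crosslinking and PAGE too, at 6661 and 7837 RPM, with 3454 and 6378 reads at that stretch.

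On chromosome 12, plus strand, 50850355 to 50850568, a site went from 4545 and 6385 reads to 19142 and 17719. Its gene held 3065 and 6091 RPM with PAGE and 14950 and 11940 without (log2 difference 1.63 ± 0.25, SE, limma adjusted p = 6.42e-04), and this site alone gave at least 94.4% of the gene's site reads in each library. By the site's highest peak the log2 difference was 0.86. Here the noUV libraries were lower, with 572 and 920 RPM for the gene with PAGE and 1563 and 1690 without. Their smaller lists held 83 and 148 reads at this site with PAGE and 702 and 1163 without. On chromosome 7, plus strand, 96639448 to 96639783, the only site of its gene went from 41 and 33 reads to 275 and 291. Its gene rose from 9.85 and 11.2 to 93.1 and 104 RPM (3.11 ± 0.19, SE, limma adjusted p = 3.91e-07), against 1.95 by the site's highest peak.

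The gene with the largest share in both groups was not called by reads, but its share of peaks rose. It had 65 and 77 peaks with PAGE and 124 and 105 without, a log2 difference in peak share of 0.48 (limma adjusted p = 0.0126). The gene lies on chromosome X, minus strand, 73040560 to 73072529, and held 52909 and 93497 RPM with PAGE and 100645 and 90492 without. The libraries with PAGE differed from each other more than the groups did (log2 difference 0.44 ± 0.37, SE, limma adjusted p = 0.405). Without hnRNPI_50k_lowRNase replicate 2 the difference was 0.85 and passed the test, as did 0.25 with clusters in place of peaks (limma adjusted p = 5.49e-04). Within the gene, a stretch of 39 nt at 73046523 to 73046561 was listed only without PAGE, with 1684 and 1444 reads, next to the main site at 73046889 to 73047820, which had a log2 difference of −0.03.

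The genes that lost the most reads held very short stacks of reads. ENSG00000157168 on chromosome 8, plus strand, held 62.2 and 265 RPM with PAGE and 0 and 1.35 without (log2 difference −6.40 ± 0.56, SE, limma adjusted p = 1.01e-05). ENSG00000173039 on chromosome 11, minus strand, held 40.9 and 248 with PAGE and 0.51 and 0 without (−6.38 ± 0.61, limma adjusted p = 2.46e-05). In the former, 21 nt at 32406249 to 32406269 gave 91.6% and 100% of the site reads with PAGE, and in the latter 21 nt at 65429264 to 65429284 gave 95.1% and 100%. With values without PAGE at or near 0, the sizes follow the pseudocount: from −7.67 at 0.25 to −4.58 at 5 in the former, and from −7.86 to −4.36 in the latter. Both stacks were absent from both lists without PAGE.

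Of all sites with at least 30 reads, 41 of 18125 (0.226%) and 43 of 11871 (0.362%) were at most 28 nt long with PAGE, and 116 of 44549 (0.260%) and 110 of 41176 (0.267%) without, so the groups overlapped. Among sites with at least 30 reads in both libraries of a group and no peak in the other group, 23 of 90 with PAGE were at most 28 nt long, against 21 of 1335 without PAGE. Of the 23, 1 was 20 nt, 12 were 21 nt, 7 were 22 nt, 1 was 24 nt and 2 were 28 nt. They lay in 20 genes, of which 18 were called lower without PAGE and 1 higher; the site rule used the same libraries, so that count is a description. Of the 10 genes named for the largest falls, 6 hold such a site. The stack with the most reads, on chromosome 19, minus strand, 7122976 to 7122996, had 236 and 674 reads with PAGE. The other 20 sites of that gene at 2 RPM or more had a median log2 difference of 0.53, while the whole gene fell by 1.53.

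The stacks were uneven between replicates, and libraries of other proteins listed peaks at the same positions. By RPM, 22 of 23 were higher in replicate 2 than in replicate 1, with a median ratio of 3.51 and a range from 0.79 to 4.58. Here a site counts as listed in another library where any peak shares at least 1 nt with it. The width of that peak was not compared. Each of the 23 was also listed in both RBFOX2 libraries with PAGE, where the peak at the chromosome 19 stack had 190 and 244 reads. In the RBFOX2 libraries without PAGE 3 and 4 were listed, in the hnRNPA1 libraries with PAGE 5 and 9, and in the hnRNPc libraries with PAGE 1 and 10. The RecJ and noUV hnRNPI libraries listed at most 1 of them each, though the noUV lists are much smaller. One of the 23 is a mitochondrial stretch from 1267 to 1294, with 138 and 87 reads, which was listed in each of the hnRNPA1, RBFOX2 and hnRNPc libraries and was the only 1 not higher in replicate 2. What produced these stacks was not tested.

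**Figure D4:**
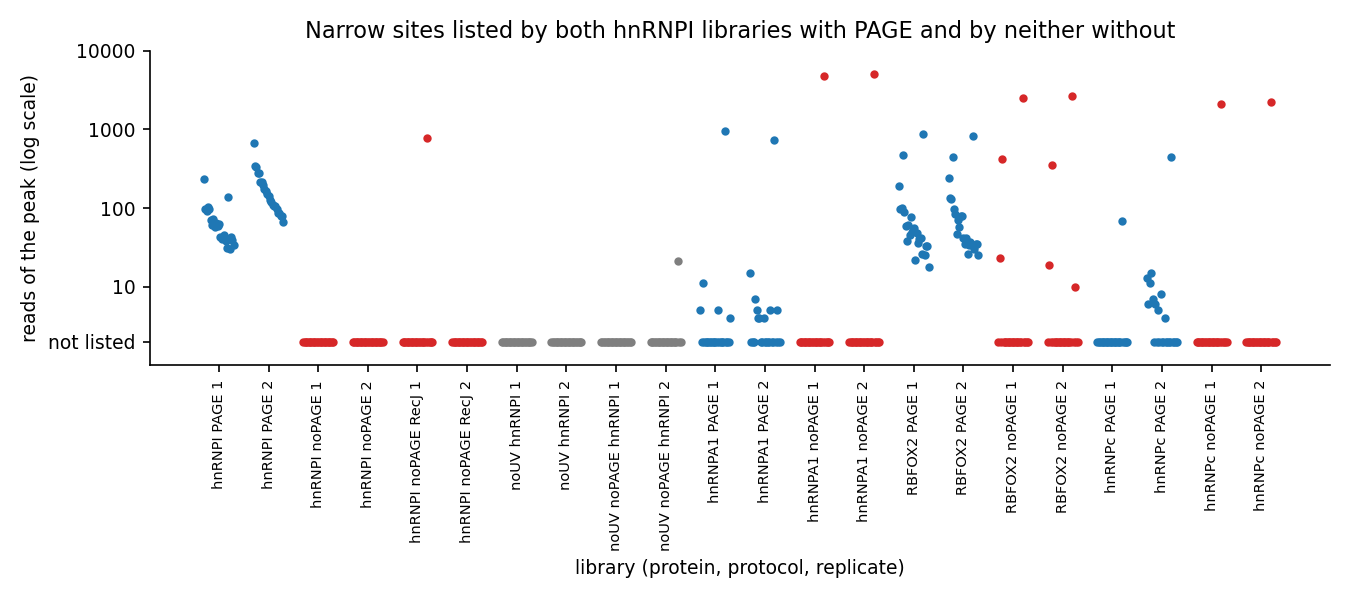
Each column is 1 library and each point 1 of the 23 sites of at most 28 nt listed by both hnRNPI libraries with PAGE and by neither without, with the reads of its highest peak on a log scale and unlisted sites at the bottom. Besides the hnRNPI libraries that define the sites, both RBFOX2 libraries with PAGE list a peak, of any width, that overlaps each of the 23.

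The 4 of these 10 genes without such a stack had log2 differences from −1.60 to −1.48. The gene at −1.60, on chromosome 17, plus strand, 73029991 to 73061878, held 35.1 and 126 RPM with PAGE and 19.7 and 23.0 without. Its difference was −0.70 without hnRNPI_50k_lowRNase replicate 2 and −2.51 without replicate 1, and the call was lost with no filter, at a peak p below 1e-05 and with the RecJ libraries. The gene on chromosome X, minus strand, 39909567 to 40018850, held 161 and 177 RPM with PAGE and 61.1 and 56.7 without, a log2 difference of −1.50 ± 0.13 (SE, limma adjusted p = 6.99e-06). It lost peaks as well, with a log2 difference of −0.80 (limma adjusted p = 0.00199). The gene on chromosome 16, plus strand, 85646104 to 85709557, fell from 81.5 and 83.1 to 26.9 and 26.5 (−1.59 ± 0.16, limma adjusted p = 3.42e-05) with a peak difference of −0.83 (limma adjusted p = 0.0175). In the latter 2 genes the replicates lay close together and the groups far apart.

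Counted as peaks, fewer genes passed the test than by reads. At the same genes, 393 had a higher and 394 a lower share of peaks without PAGE (limma on log2 of peaks per 100000 plus 1, adjusted p below 0.05), 4.81% and 4.82% of 8177, or 9.62% in all. Of 2235 genes tested with peaks over more than 100 kb, 231 were higher and 153 lower by peaks, while 98 (4.38%) were higher and 567 (25.4%) lower by reads, beside 7.28% and 20.6% of all genes tested. After median centring the calls by reads in this class were 238 and 371, beside 11.6% and 13.6% of all genes. Their share of all listed reads was 48.8% and 45.8% with PAGE and 42.4% and 43.7% without, and with the highest read number of each cluster it went only from 53.2% to 52.2%. The count of genes called by peaks depends on low genes and on single libraries: it was 0 with the filter at 2 RPM or with none (2528 and 3060 genes at an unadjusted p below 0.05 in limma), 284 and 308 without replicate 1 or 2 of hnRNPI_50k_noPAGE, and 1618 without hnRNPI_50k_lowRNase replicate 1.

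Joined over the 4 libraries (peaks less than 30 nt apart), the lists formed 558554 sites. All 4 libraries listed 77262 of them, 13.8%, and these held between 55.6% and 58.3% of each library's site reads. Both libraries without PAGE and neither with it listed 38156 sites (6.83%), and both with PAGE and neither without listed 13716 (2.46%). Of the former, 55.2% and 54.3% had a peak in the RecJ libraries; of the latter, 24.0% and 23.9% had. Longer lists with more reads reach more sites, and that part in the difference was not tested. Among 350 sites listed by all 4 libraries at 50 RPM or more, 64 (18.3%) lay above a log2 difference of 1 and 6 (1.71%) below −1.

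Strong sites listed only without PAGE differed in whether the noUV libraries list them. On chromosome 2, minus strand, 114476317 to 114476429 had 332 and 318 reads without PAGE, 333 and 339 in the RecJ libraries and no listed peak in any of the noUV libraries. On chromosome 1, plus strand, 167978158 to 167978321 had 274 and 259 reads and was listed at 202 and 388 in the noUV libraries without PAGE. On chromosome 7, plus strand, 73609599 to 73609658 had 230 and 247 reads, and 23 and 40 in those noUV libraries.

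To place the changes beside RNA retrieved without crosslinking, genes were grouped by the ratio of their RPM in the noUV libraries without PAGE to the RecJ libraries, none of which enter the comparison. Of 486 genes at a ratio of 4 or more, 162 (33.3%) were called higher without PAGE and 62 (12.8%) lower. Of 5023 genes under 0.25 times the RecJ level, 210 (4.18%) were called higher and 749 (14.9%) lower. In between, at ratios of 1 to 4, 13.8% were higher and 31.3% lower, so both directions were more frequent there than the 7.28% and 20.6% of all genes. With the noUV libraries with PAGE in the numerator, 21.2% of 504 genes at a ratio of 4 or more were higher and 28.4% lower. The 15 mitochondrial genes that rose all lay higher in the noUV libraries without PAGE than in the crosslinked ones without PAGE. So did 43 of 47 compact and 221 of 533 other nuclear genes called higher. The other mitochondrial genes tested met the same rule, so it does not set apart those that rose. The gene from 14258 to 14569, called lower, held 131 and 151 RPM in these noUV libraries and 63.7 and 72.7 in the crosslinked ones. The share over all genes tested was not counted.

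**Figure D5:**
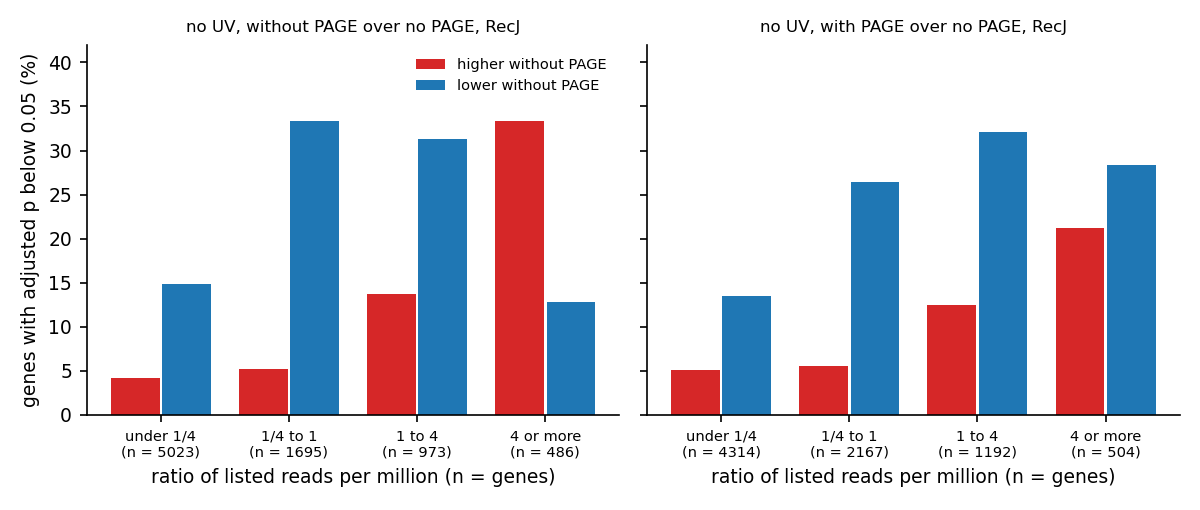
Bars give the percent of genes called higher (red) or lower (blue) without PAGE, in bins of the ratio of RPM in noUV libraries to the RecJ libraries, for noUV libraries without PAGE (left) and with PAGE (right). At a ratio of 4 or more, 33.3% of genes are higher on the left and 21.2% on the right.

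The same step was omitted for hnRNPA1 and RBFOX2, which have 2 libraries with PAGE and 2 without each. Mitochondrial genes held 1.99% and 1.50% of listed reads with PAGE and 24.2% and 24.5% without for hnRNPA1, and 1.49% and 1.74% against 6.82% and 7.39% for RBFOX2. A test of the difference in effect, hnRNPI minus the mean of the other 2 proteins (limma interaction over 12 libraries), called 4281 of 9521 genes higher (45%) and 408 lower (4.29%), 49.2% in all, around a median of 0.60 on the log2 scale. With each library centred on its median gene, an alternative chosen with the data in view, 1026 (10.8%) were higher and 1148 (12.1%) lower, 22.8% in all. Of the 19 mitochondrial genes, 6 were lower and none higher as scaled, and 12 were lower and none higher after centring. The median log2 difference of the 19 was 2.50 in hnRNPI, 3.77 in hnRNPA1 and 2.05 in RBFOX2, so hnRNPI lay between the other proteins. The count over all genes was 1748 against hnRNPA1 alone and 10 with hnRNPc added. One hnRNPc library with PAGE, replicate 1, lists only 3268 peaks and 49769 reads, against 214849 and 2484265 in replicate 2, and without it the count with hnRNPc was 3323 (an alternative added after the data were seen, in which the lone library is assumed to vary like the others).

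The minus-strand mitochondrial gene from 14258 to 14569 differed by −0.65 in hnRNPI, −0.61 in RBFOX2 and 3.18 in hnRNPA1 (interaction −1.94, limma adjusted p = 2.38e-05). The minus-strand genes from 5827 to 5859 and from 15957 to 15999 differed by 1.27 and 1.04 in hnRNPA1 and by −2.89 and −0.61 in RBFOX2. The gene of the chromosome 7 site had a log2 difference of 3.11 in hnRNPI and −1.01 in RBFOX2, where it held 6.06 and 5.34 RPM with PAGE and 4.16 and 1.13 without. It is listed in 0 of the 4 hnRNPA1 libraries, so the interaction of 3.62 (limma adjusted p = 8.88e-05) counts a gene without listed values there as unchanged. The gene of the chromosome 12 site differed by 1.63 in hnRNPI, −0.36 in hnRNPA1 and 0.24 in RBFOX2 (interaction 1.69, limma adjusted p = 4.94e-04). By contrast, the whole gene that holds the 71 nt stretch on chromosome 3 gave 4.10 in hnRNPI, 4.18 in hnRNPA1 and 4.08 in RBFOX2. No difference was shown (interaction −0.03 ± 0.30, SE, limma adjusted p = 0.933).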

How the data were processed

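The authors deposited 1 peak list per library, with a p-value per peak and no header. Per the submitters' processing notes, reads were processed with bcl2fastq, STAR 2.7.3a and UMI-tools 1.0.1 on hg19, and the file names give CLIPper. The last part of each deposited peak name, of unit other (its meaning is not stated), was read as the reads of that peak; depth is unknown. Shares per gene were tested with limma 3.58.1 (R 4.3.3; trend), pseudocount 1, mean of at least 10 listed reads per 1000000 (RPM). The test, checked on simulated data for this comparison, recovered 45% of genes changed by 1 on the log2 scale and 77% by 2, with 7 false calls among 8177. Genes named are the 10 largest differences per direction at adjusted p below 0.05 and 50 RPM, the 5 largest shares per group, the 3 largest per class and 5 exclusive sites per group. The members and lists were chosen with earlier results of these data known. No identifier could be matched to a symbol (0 matched), so gene lists by symbol and the planned RNA classes were not applied. Classes by span of the listed peaks (10 hnRNPI libraries), narrow sites and bins by noUV ratio were chosen after seeing the data. Coordinates are 1-based.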

Additional observations from a re-analysis of the deposited data

Results flagged for a closer look

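The effect of omitting PAGE was compared between proteins, as hnRNPI minus the mean of hnRNPA1 and RBFOX2 (limma interaction, log2 scale). It differed at 4689 of 9521 genes. Of 47 named or mitochondrial genes tested, 20 differed both as scaled and after median centring. The value was negative for 14 of them and positive for 6. A negative value can be a larger fall or a smaller rise in hnRNPI than in the mean of the other proteins. Values as scaled follow, and no explanation was tested.

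The lowest values belonged to nuclear genes with short stacks in the lists with PAGE: −5.17 on chromosome 11 (65421093 to 65429561), −4.81 on chromosome 19 (12950254 to 12979501), −3.68 on chromosome 8 (31775661 to 32406269, listed in 1 of the 4 hnRNPA1 libraries) and −2.57 on chromosome 17 (39969815 to 39979422). The chromosome 8 gene differed by −6.40 in hnRNPI, −4.67 in RBFOX2 and −0.78 in hnRNPA1. A gene on chromosome 19 at 40738213 to 40791101 gave −0.82, with −1.51 in hnRNPI, −1.14 in RBFOX2 and −0.25 in hnRNPA1. Genes on chromosome 16 (85646104 to 85709557) and chromosome X (39909567 to 40018850) gave −0.80 and −0.51, but RBFOX2 fell there much as hnRNPI did. The chromosome 16 gene differed by −1.59 in hnRNPI, −1.45 in RBFOX2 and −0.14 in hnRNPA1. On chromosome X the values were −1.50, −1.51 and −0.47. The compact gene on chromosome 11 at 62609098 to 62609282 gave −1.31. It rose in each protein, by 1.42 in hnRNPI, 2.11 in RBFOX2 and 3.35 in hnRNPA1.

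Among mitochondrial genes the minus-strand gene from 14258 to 14569 gave −1.94. Plus-strand genes gave −1.13 (3421 to 4137), −1.11 (9239 to 9945), −0.57 (12350 to 14147), −0.50 (1673 to 2895) and −0.49 (7633 to 8161). These plus-strand genes rose in each protein, so the values are smaller rises in hnRNPI than in the mean of the others.

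Higher values were 3.62 for the gene of the chromosome 7 site, which 0 of the 4 hnRNPA1 libraries list, and 1.69 for that of the chromosome 12 site. A gene on chromosome 18 (36787612 to 37380266) gave 1.13, a gene on chromosome X (107963258 to 107968002) 1.11, a gene on chromosome 4 (20254936 to 20621473) 1.03 and a gene on chromosome 13 (93879150 to 95057807) 1.01. The genes on chromosomes 18, 4 and 13 were not called by reads in hnRNPI, with log2 differences of 0.04, 0.11 and −0.19. In RBFOX2 they differed by −1.62, −1.34 and −1.81, and in hnRNPA1 by −0.56, −0.50 and −0.59. The chromosome X gene differed by 0.95 in hnRNPI, −0.26 in RBFOX2 and −0.07 in hnRNPA1.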

How the results depend on the processing

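Over 47 genes, 691 of 722 log2 differences under the alternatives kept direction and side of the threshold, 19 lost the call, 9 gained it and 3 reversed. The reversals were −0.45 and −0.42 with clusters for the overlapping compact genes at 10823015 on chromosome 11, and 1.01 without hnRNPI_50k_lowRNase replicate 2 for the mitochondrial gene from 15957 to 15999, which ranged from −1.45 with 1 library left out. Genes called by reads, 2277, numbered 1330 with the filter at 50 RPM, about 1.2e+03 with none (312 higher and 922 lower), 1001 at a peak p below 1e-05 and from 948 (without hnRNPI_50k_noPAGE replicate 1) to 3156 (without hnRNPI_50k_lowRNase replicate 2) with 1 library left out. Genes called by peaks, 787, numbered 0 with the filter at 2 RPM or none and from 284 to 1618 with 1 library left out. Calls for the difference between proteins, 4689, numbered 2818 with clusters, 2174 median centred, 1748 against hnRNPA1 alone, 10 with hnRNPc added (3323 without its near-empty library) and from 3609 to 4991 with 1 library left out. Mitochondrial share differences, 1.56 percentage points, were 0.77 with clusters and 1.70 at p below 1e-05, and from 1.43 to 1.69 with 1 library left out. For spans up to 300 nt the difference was 0.36 with clusters, for over 300 nt to 10 kb −0.35 at p below 1e-05, for over 100 kb −0.96 with clusters, and for over 10 to 100 kb it reversed to −0.28 at p below 1e-05 and ranged from −0.17 (without hnRNPI_50k_lowRNase replicate 1) to 2.30 with 1 library left out. At p below 1e-05, 46073 sites were listed by all 4 libraries and 3728 with PAGE only. Except where fewer genes, peaks or libraries entered, the cause was not tested.

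With the replicate number as a block, 2337 genes were called by reads, 349 by peaks and 4633 for the difference between proteins. Deviations of same-numbered libraries correlated at −0.08 over 8177 genes. With only 2 pairs, this cannot show whether same-numbered libraries share a culture or batch, and no label says so.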
